A study of Mus musculus with 4 samples.

Results

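The genes described here are 41 genes of macrophages and other leukocytes, measured in cultured mouse skin fibroblasts. They were selected by name, with earlier results of these arrays known, and all 41 had a probe set naming that gene alone, out of 18193 named genes on the array. The set was singled out because wild-type isolation 1 stood apart in it, so its values chose the set. Its difference from the other arrays is a description with no test, and the genotype fit given further on, which holds the same array, is no independent support. The fibroblasts came from the skin of mice at postnatal day 1, either adam9 -/- (knockout, n = 2 isolations) or adam9 +/+ (wild type, n = 2). ADAM9 is a membrane-anchored metalloprotease that sheds proteins from the cell surface. All 4 cultures were plated at the same cell number on square plates of 10 cm, kept for 48 h without treatment and measured on 1 array each. The labels name no mouse strain, cell sort or passage number and do not say whether an isolation came from 1 animal or several, so the spread between isolations may be partly technical.

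Macrophages are phagocytes that live in nearly every tissue, the dermis included, and depend on signals through the CSF1 receptor. They engulf debris and microbes, digest them in lysosomes, sense antibody through Fc receptors and complement through C1q, C3a and C5a receptors, and share with all leukocytes the phosphatase CD45 and the beta-2 integrins. PU.1, a transcription factor of blood cells, binds purine-rich DNA with a GAGGAA core and acts at many genes of this kind.

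Because the genes stood high together in 1 array, the sequence just upstream of their start sites is shown for 4 of the 10 members with a difference of over 4 log2 units. Ctss, C1qb and C1qc hold the GAGGAA core and Lyz2 does not. The RefSeq promoter table (GRCm38.p6) held windows of 250 bases before to 50 bases after the start for 32 of the 41 genes. The part before the start is printed 5′ to 3′ on the gene's strand, with GAGGAA or its reverse complement TTCCTC in capitals.
Ctss, chr3:95526536-95526785, plus strand: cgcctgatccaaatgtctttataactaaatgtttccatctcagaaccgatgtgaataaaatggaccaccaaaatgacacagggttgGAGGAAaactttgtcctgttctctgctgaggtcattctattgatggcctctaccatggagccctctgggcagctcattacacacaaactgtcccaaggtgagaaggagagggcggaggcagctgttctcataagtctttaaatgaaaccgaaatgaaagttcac
C1qb, chr4:136886201-136886450, minus strand: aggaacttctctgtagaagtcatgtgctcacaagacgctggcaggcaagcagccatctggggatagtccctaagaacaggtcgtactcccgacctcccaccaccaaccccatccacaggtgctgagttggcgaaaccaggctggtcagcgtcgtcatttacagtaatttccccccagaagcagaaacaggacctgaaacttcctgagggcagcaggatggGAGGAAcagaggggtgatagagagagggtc
C1qc, chr4:136892915-136893164, minus strand: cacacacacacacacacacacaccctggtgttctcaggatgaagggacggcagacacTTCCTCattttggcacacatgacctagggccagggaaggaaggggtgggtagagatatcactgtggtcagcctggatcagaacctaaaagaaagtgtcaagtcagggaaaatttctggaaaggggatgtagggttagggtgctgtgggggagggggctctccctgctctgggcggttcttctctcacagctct
Lyz2, chr10:117282273-117282522, minus strand: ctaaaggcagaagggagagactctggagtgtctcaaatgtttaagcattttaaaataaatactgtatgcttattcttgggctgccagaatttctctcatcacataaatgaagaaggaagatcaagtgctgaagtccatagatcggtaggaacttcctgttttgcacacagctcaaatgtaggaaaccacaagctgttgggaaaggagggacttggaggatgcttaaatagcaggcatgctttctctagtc

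GAGGAA on either strand was found in the full window of 20 of the 32 members, or 62.5%, against 31.3% of all 27025 genes in the table. The 20 include 16 of the 25 members with a window that stood high in wild-type isolation 1. They also include 4 of the 7 that did not, Ccl3, Cd3e, Fcgr1 and Laptm5. Of the members over 4 log2 units that are not printed, Mpeg1 holds no GAGGAA in its window, and Fcgr3, Ms4a7 and Ptprc hold it. CACGTG, the E-box searched for comparison, was in 0 of the 32 windows and in 8.09% of all genes. A match is a run of letters, and binding was not measured.

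The fibroblast label was borne out by its markers. The median of 23 fibroblast genes was 12.50 and 12.63 in knockout isolations 1 and 2 and 12.41 and 12.32 in wild-type isolations 1 and 2, on the deposited log2 scale. Adam9 read 8.33 and 8.55 in knockout isolations 1 and 2, against 11.58 and 11.70 in wild-type isolations 1 and 2. The knockout arrays also had Xist at 10.38 and 10.40 and the Y-linked Eif2s3y at 2.75 and 2.67, against 4.29 and 4.32 and 9.19 and 9.31 in the wild type, so genotype and sex-linked expression cannot be told apart here.

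Macrophage genes were high in wild-type isolation 1 alone. The median over the 41 genes was 6.87 there, against 4.04 and 4.23 in knockout isolations 1 and 2 and 4.39 in wild-type isolation 2. Of the 41, 38 had their highest value in wild-type isolation 1, 2 in wild-type isolation 2 (Cd163 and Cd3e), 1 in knockout isolation 2 (Laptm5) and 0 in knockout isolation 1. A gene was counted as high when wild-type isolation 1 exceeded the highest of the other 3 arrays by over 1 log2 unit, or 2-fold, and 33 of the 41 were, against 0.599% of all 18193 named genes. That share belongs to the contrast that singled out the set. The median difference over the 41 was 2.15 log2 units, or 4.43-fold, and over all named genes it was -0.16. By over 2 log2 units 22 genes stood high, against 0.22% of all named genes. By over 4 log2 units 10 did, and outside the set only Lyz1 (4.64) and Clec4d (4.12). Just inside the limit lay Cd14 at 1.06 and just outside it C5ar1 at 0.96. In bulk RNA, more cells of a type and more RNA per cell cannot be told apart. Dim probe sets have no stated background level, so the fold of a gene that was dim in the other arrays depends on where that level lies.

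**Figure D1:**
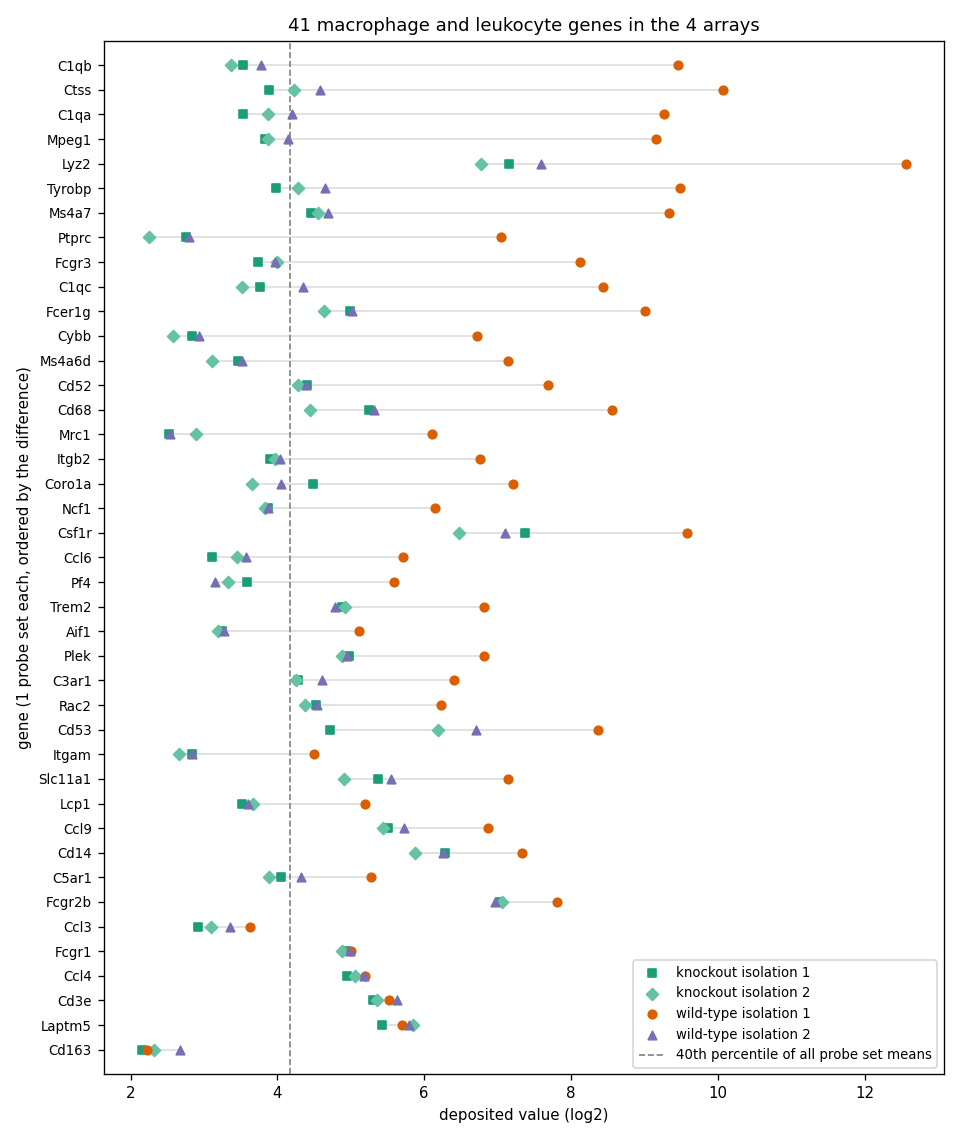
Deposited log2 values of the 41 genes, 1 probe set each, in the 4 arrays, ordered by the difference between wild-type isolation 1 and the highest other array. Circles mark wild-type isolation 1, which is to the right of the other arrays for 38 genes. The dashed line is the 40th percentile of all probe set means (4.17), and 16 of the genes lie below it in all 3 other arrays.

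The 4 genes taken as markers were all high. Lyz2, the lysozyme of macrophages, was at 7.16 and 6.78 in knockout isolations 1 and 2, 7.59 in wild-type isolation 2 and 12.56 in wild-type isolation 1, a gap of 4.97. Ctss, the lysosomal protease cathepsin S, was at 3.88, 4.23 and 4.58 in the same 3 arrays and at 10.07 in wild-type isolation 1, a gap of 5.49. Tyrobp, the adaptor DAP12, through which many myeloid receptors signal, was at 3.98, 4.28 and 4.65, against 9.49. C1qb, a chain of complement C1q, was at 3.53, 3.37 and 3.77, against 9.46, a gap of 5.69 or 51.5-fold. With the mean over its 3 probe sets the gap of C1qb was 4.72, and on the one brightest in the other arrays it was 2.77. For all 4, wild-type isolation 2 was the next highest array.

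Genes of the lysosome and phagosome were high in 5 of 6 cases. Besides Lyz2 and Ctss, Mpeg1, a pore-forming protein of phagocytes, was at 3.83, 3.87 and 4.14 in knockout isolations 1 and 2 and wild-type isolation 2, and at 9.16 in wild-type isolation 1. Cd68, a lysosomal membrane protein used as a macrophage stain, was at 5.24, 4.44 and 5.32, against 8.55. Slc11a1, the phagosomal metal transporter NRAMP1, had the smallest gap of the 5, 1.60. The sixth gene, Laptm5, a lysosomal membrane protein of blood cells, was at 5.42, 5.85 and 5.79, against 5.70, so wild-type isolation 1 lay within the range of the other arrays on this probe set.

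C1q is built from 3 chains, whose genes C1qa, C1qb and C1qc lie next to each other. All were high. C1qa was at 3.54, 3.88 and 4.20 in knockout isolations 1 and 2 and wild-type isolation 2, whereas wild-type isolation 1 had 9.26. C1qc was at 3.76, 3.51 and 4.35, against 8.44. Of the receptors for the complement fragments C3a and C5a, C3ar1 was high, at 4.28, 4.25 and 4.61 against 6.41. C5ar1, at 4.04, 3.88 and 4.32 against 5.28, missed the limit. It passed with wild-type isolation 2 left out (1.23), on its other probe set (2.50) and with both probe sets averaged (1.73).

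The genes for signalling adaptors with an immunoreceptor tyrosine-based activation motif were among the high ones, whereas the Fc receptor genes were uneven. Fcer1g, the common Fc receptor gamma chain, was at 4.99, 4.64 and 5.02 in knockout isolations 1 and 2 and wild-type isolation 2, whereas wild-type isolation 1 had 9.01. Trem2, a lipid-sensing receptor that signals through DAP12 and carries no such motif itself, was at 4.88, 4.92 and 4.79, against 6.81. That value is from an _s_at probe set, a kind that can bind several transcripts, and on the other Trem2 probe set wild-type isolation 1 differed by -0.017. The mean over both gave 0.94. Fcgr3, an activating IgG receptor, was at 3.74, 3.99 and 3.96, against 8.12. The inhibitory receptor Fcgr2b, at 7.03, 7.06 and 6.97 against 7.81, and the high-affinity receptor Fcgr1, at 4.93, 4.88 and 4.99 and 0.01 higher in wild-type isolation 1, did not pass on the probe sets used.

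The CSF1 receptor gene and the gene of a co-receptor for bacterial lipopolysaccharide were both high. Csf1r, the receptor for the growth factors CSF1 and IL-34, was at 7.37, 6.47 and 7.10, against 9.58 in wild-type isolation 1. Its 3 probe sets disagreed, though the second also passed the limit, with a gap of 1.65. On the third, wild-type isolation 1 stood 0.047 above the highest other array, and the mean over all gave a gap of 1.30. Cd14, the co-receptor for lipopolysaccharide, was at 6.28, 5.87 and 6.26, against 7.34. The scavenger receptors parted. Mrc1, the mannose receptor CD206, was at 2.52, 2.89 and 2.54, against 6.11. Cd163, the haemoglobin scavenger receptor, was at 2.15, 2.31 and 2.67, against 2.23 in wild-type isolation 1, which lay within the range of the others.

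The integrin, oxidase and surface genes of leukocytes were high throughout. Itgb2, the beta-2 integrin chain, was at 3.90, 3.97 and 4.03, against 6.76, and its partner Itgam, the alpha chain of CD11b, at 2.84, 2.66 and 2.84, against 4.50. Of the NADPH oxidase, which makes superoxide in phagosomes, the membrane subunit Cybb was at 2.84, 2.57 and 2.93, against 6.72. The brightest Cybb probe set and the next had nearly the same mean (3.767 and 3.762), with gaps of 3.79 and 1.31. The gap of Cybb was also 1.31 under quantile normalization, after which the brightest probe set was picked anew. With the probe set brightest in the other arrays it was 1.31, and with the Cybb probe sets averaged 2.41. The cytosolic Ncf1 was at 3.87, 3.83 and 3.87, against 6.14. The GTPase Rac2 was at 4.53, 4.38 and 4.53, against 6.23, and its gap was 0.998 with the mean over its probe sets. That wild-type isolation 1 lay above the other arrays in these genes follows from the limit, which 0.599% of all named genes passed. Ptprc, which encodes CD45 of all nucleated blood cells, was at 2.75, 2.26 and 2.80, against 7.05, and its second probe set showed no such gap (-0.20). The membrane-spanning Ms4a7 was at 4.46, 4.55 and 4.69, against 9.33. Ms4a6d and the lymphoid and myeloid surface gene Cd52 had gaps of 3.62 and 3.28.

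Cd53, a leukocyte tetraspanin, was the 1 member whose other arrays spread by over 1 log2 unit. It was at 4.72 and 6.18 in knockout isolations 1 and 2, 6.70 in wild-type isolation 2 and 8.37 in wild-type isolation 1. For 29 members the other 3 arrays lay within 0.5 log2 units of each other, and the median spread was 0.39.

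Of the actin regulators of blood cells, 4 of 4 were high. Coro1a, coronin-1A, was at 4.48, 3.65 and 4.05, against 7.21 in wild-type isolation 1. Aif1, the calcium-binding protein IBA1, was at 3.25, 3.19 and 3.27, against 5.12, on an _s_at probe set, its only one. Lcp1, the actin bundler L-plastin, was at 3.52, 3.66 and 3.59, against 5.20. Plek, pleckstrin, had a gap of 1.84.

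Of the chemokines, 3 of 5 were high. Ccl6 was at 3.11, 3.46 and 3.57 in knockout isolations 1 and 2 and wild-type isolation 2, whereas wild-type isolation 1 had 5.72. Pf4, platelet factor 4, was at 3.58, 3.33 and 3.15, against 5.59, and Ccl9 had a gap of 1.15. The inflammatory chemokines Ccl3, at 2.92, 3.10 and 3.36 against 3.62, and Ccl4, at 4.94, 5.05 and 5.19 against 5.19, did not pass. Cd3e, a chain of the T-cell receptor complex, was at 5.31 and 5.35 in the knockout arrays, 5.63 in wild-type isolation 2 and 5.52 in wild-type isolation 1, and did not pass either.

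Several members were measured by more than 1 probe set, and these often disagreed. The 41 genes had 75 probe sets, of which 53 passed the same limit, against 0.475% of the 34945 probe sets that name 1 gene. The count above used the brightest probe set of each gene, by its mean in all 4 arrays. On any probe set, 37 of 41 genes passed, against 0.742% of all named genes counted the same way, which is a choice made after the values were seen. The 4 added were Laptm5, Fcgr1, Fcgr2b and C5ar1, and the 4 that passed on none were Cd163, Ccl3, Ccl4 and Cd3e. Laptm5 on an _x_at probe set, a kind that can bind unrelated transcripts, was at 3.27, 3.33 and 3.54, against 8.11, a gap of 4.57. Lcp1 had a gap of 4.96 on its second probe set and Fcgr2b one of 4.04 on an _s_at probe set, while Fcgr1 reached 1.39. Averaging the probe sets of a gene also moved other gaps by over 1.5 times. It lowered those of Ms4a7 from 4.64 to 2.52, Ptprc from 4.25 to 2.06, Ms4a6d from 3.62 to 2.07, Coro1a from 2.72 to 1.76, Ncf1 from 2.28 to 1.34 and Cd53 from 1.66 to 1.08. The gap of Lcp1 rose from 1.53 to 3.28.

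**Figure D2:**
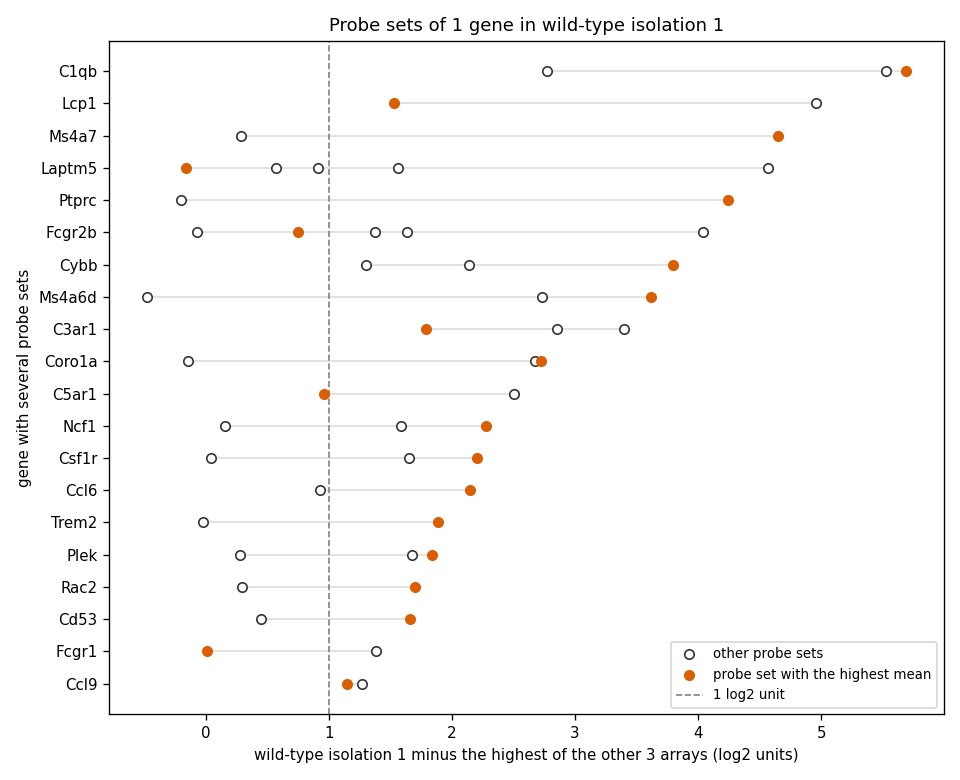
Difference between wild-type isolation 1 and the highest other array (log2 units) for each probe set of the 20 members with several probe sets. Filled circles mark the probe set with the highest mean, open circles the others, and the dashed line 1 log2 unit. Laptm5, Fcgr2b, Fcgr1 and C5ar1 have filled circles below the line and open ones above it.

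The remaining 3 arrays differed by less in these genes, though wild-type isolation 2 tended to lie above the knockout arrays. Wild-type isolation 2 was above both knockout arrays for 27 of the 41 members, against 33.9% of all named genes. The median of wild-type isolation 2 minus the mean of the knockout arrays was 0.21. Knockout isolation 1 was above knockout isolation 2 for 23 of the 41, against 51.0% of all named genes. In the other 3 arrays 16 members lay below 4.17, the 40th percentile of all probe set means, and in wild-type isolation 1 the 33 high members all lay above it.

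The genotype comparison asked which genes differ constitutively without ADAM9, and its wild-type group holds the array that stands apart. A limma fit over 13271 genes above the 40th percentile included 31 of the members, some of which passed that filter only through wild-type isolation 1. Of the 31, 0 were called at a limma adjusted p under 0.05, against 9 genes or 0.0678% of all tested, 0.0527% lower and 0.0151% higher in the knockout. The lowest limma adjusted p was 0.432, for Cd53 (-2.09, SE 0.758), which was also the 1 member with an unadjusted p under 0.05. Lyz2 differed by -3.10 (SE 1.69) and by -0.62 without wild-type isolation 1. Ctss differed by -3.27 (SE 1.86) and by -0.53 without that array. Over the 31 the median difference, knockout minus wild type, was -1.46, against 0.0027 over all genes tested. With wild-type isolation 1 left out it was -0.21, and with wild-type isolation 2 left out it was -2.82. Each of these fits rests on 1 wild-type array. Over all 41, with no filter, the median was -1.36. Both wild-type arrays were above both knockout arrays for 26 of the 41 members, against 20.5% of all named genes, and the array that chose the set is part of that count.

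**Figure D3:**
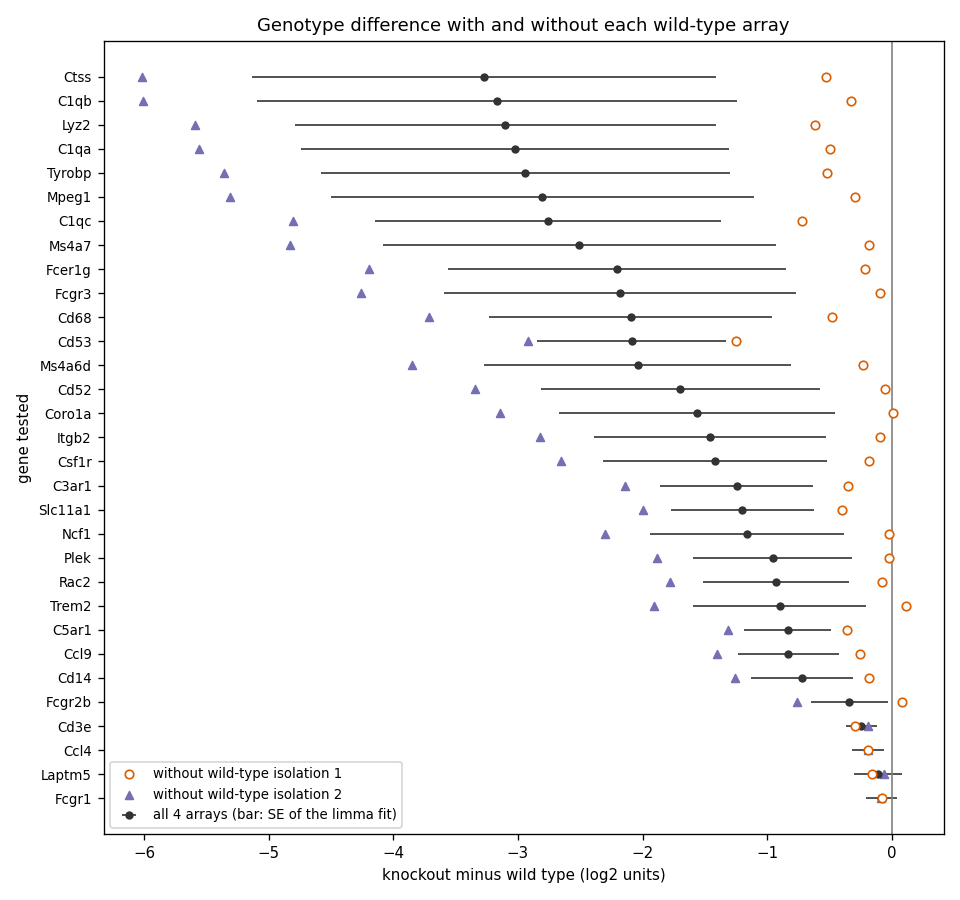
Knockout minus wild type (log2 units) for the 31 members tested, with the standard error of the limma fit as bars. Open circles leave out wild-type isolation 1 and triangles leave out wild-type isolation 2. Without wild-type isolation 1 the differences lie between -1.25 and 0.11, and Cd53 is the farthest from 0.

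Genes that mark subsets and states of macrophages and other leukocytes were then read from 27 lists in the same way, wild-type isolation 1 against the highest other array. With 1 array on one side these are descriptions. Of all named genes 0.599% passed the limit, so 0 passing in a short list is close to that share. List members named here for not passing were chosen after their values were seen. In the limma fit 0 genes of these lists passed.

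Of 22 genes of resident tissue macrophages, 2 were high. Adgre1, which encodes the surface protein F4/80, was at 4.45 in each knockout array and 4.35 in wild-type isolation 2, whereas wild-type isolation 1 had 7.05. Cx3cr1, the fractalkine receptor, was at 4.16, 4.31 and 4.34, against 5.66, and its gap fell to 0.64 with the mean over its probe sets. Lyve1 (a gap of 0.02), Timd4 (0.18), Folr2 (0.44) and Marco (0.16), markers of particular resident subsets, did not pass. Selenop, the gene of the list with the highest mean, was at 11.58 to 12.85 in all arrays. The list of 9 measured microglia-type genes had 0 high, and so did the list of 12 osteoclast and giant-cell genes.

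Monocyte genes were not high, with 0 of 12 past the limit and a median of -0.14. Ccr2, the chemokine receptor of inflammatory monocytes, was at 4.77, 5.06 and 5.02, against 5.08. Plac8 was at 11.11 in wild-type isolation 1 and higher in wild-type isolation 2, at 12.36. Antigen presentation on MHC class II showed 0 of 10, with H2-Aa at 3.87, 3.86 and 3.96 against 4.04 and the invariant chain Cd74 at 5.01, 5.17 and 5.15 against 5.49. Dendritic and Langerhans cell genes had 0 of 16.

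Alternatively activated macrophages, as after IL-4, were covered by 22 genes, of which 4 were high. Ccl8, a monocyte chemoattractant, was at 8.40, 8.59 and 8.79, against 11.09. Mmp12, the macrophage elastase, was at 3.17, 3.19 and 3.37, against 5.47. Cd200r1, an inhibitory receptor, had a gap of 1.38 (0.89 with the mean over probe sets), and Clec7a, the beta-glucan receptor Dectin-1, one of 1.16. Arg1, Retnla and Chil3, the usual IL-4 response genes, did not pass, with gaps of -1.05, 0.06 and 0.10.

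Of 28 genes of inflammatory activation, 1 was high, Cxcl2, at 3.54, 3.07 and 3.17 against 4.59. Clec4e came closest of the others, at 2.58, 2.49 and 2.38 against 3.49, a gap of 0.91. Nos2, the inducible nitric oxide synthase, had a gap of 0.15, Il1b one of 0.02 and Tnf one of 0.08. Of the 28 genes, 12 had their highest value in wild-type isolation 1. Ptgs2, cyclooxygenase-2, was at 9.27 in wild-type isolation 1 and higher in wild-type isolation 2, at 11.17. Interferon-stimulated genes had 0 of 19 high, with a median of -0.14.

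Lipid handling and phagolysosomal genes had 4 of 32 high. Cd36, a fatty acid and scavenger receptor, was at most 3.59 in the other arrays, against 6.15 in wild-type isolation 1. Apoe, apolipoprotein E, was at 8.12 and 6.53 in the knockout arrays, 5.19 in wild-type isolation 2 and 9.60 in wild-type isolation 1, so that its other arrays also differed widely. Without knockout isolation 1 the gap of Apoe was 3.07 instead of 1.48. Ctsc, cathepsin C, and Gpnmb, a glycoprotein of lysosome-rich cells, had gaps of 1.10 and 1.02, which fell to 0.51 and 0.78 with the mean over probe sets. Without wild-type isolation 2 the gap of Ctsc was 2.09. Ctsl, cathepsin L, the gene of the list with the highest mean, had a gap of -0.08.

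Receptors and signalling genes were covered by 4 lists. Of 44 leukocyte signalling and surface genes 12 were high, led by Clec4n, which encodes Dectin-2, at 3.14, 3.39 and 3.74 against 7.55. The Clec4n value is from an _s_at probe set. Cd48 (2.64), Cd300lb (2.61) and Cd72 (2.26) followed. Among 17 Toll-like receptor genes and partners, Tlr4 (0.02) and Ly96 (0.19) did not pass. Of the 17, Ly86 (2.87), the partner of the receptor RP105, and the ribosomal RNA sensor Tlr13 (1.47) were high. Of 17 chemoattractant receptors 4 were, the UDP receptor P2ry6 (1.71; 2.61 without wild-type isolation 2), Ccr1 (1.59; 0.82 with the mean over probe sets), Cxcr4 (4.28 against at most 2.77) and Cx3cr1. Ncf4 (1.71) was high among 3 further NADPH oxidase genes, and Cyba, at 10.77 to 11.26 in all arrays, was not.

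Transcription factors of the myeloid lineage had 0 of 21 high. Spi1, which encodes PU.1, came closest, at 4.94, 5.21 and 5.13 against 6.19, a gap of 0.98, and Irf8 followed with 0.68. A list of 9 myeloid growth factor and cytokine genes, holding Csf1, Il34, Csf2, Csf3 and receptors for GM-CSF, IL-3 and IL-10, had 0 high. Csf1 was at 10.41, 10.70 and 10.92 in knockout isolations 1 and 2 and wild-type isolation 2 and at 10.22 in wild-type isolation 1, so the growth factor's transcript was high in every culture. Complement and Fc partner genes had 0 of 11 high.

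Lists of other blood and skin cells held no gene past the limit, which for short lists is close to the 0.599% of all named genes. Many of the blood cell genes were dim, with a mean above 4.17 in 2 of 15 neutrophil and 1 of 10 NK-cell genes. Neutrophil genes had 0 of 15 high, mast cell and basophil genes 0 of 13, T-cell genes 0 of 13, B-cell genes 0 of 11, NK-cell genes 0 of 10, erythroid genes 0 of 8 and megakaryocyte genes 0 of 8. Keratinocyte and endothelial genes each had 0 of 10. S100a8, a neutrophil and monocyte protein, was highest in knockout isolation 2 (5.83, against 4.22 in wild-type isolation 1). Mcpt8, of the mast cell and basophil list, was at 6.42 in wild-type isolation 1 and 6.19 in knockout isolation 2. In knockout isolation 1 and wild-type isolation 2 Mcpt8 was at 4.30 and 4.49. Fibroblast genes had 0 of 23 high and a median of -0.01. Against the mean of the other 3 arrays, all 23 were higher in wild-type isolation 1, by a median of 0.19, against 0.0017 over all named genes. Only 10 of the 23 had their highest value in wild-type isolation 1. For some, a low value in wild-type isolation 2 lowered that mean. Lum was at 10.13 there, at 12.38 in wild-type isolation 1 and at 12.81 and 12.775 in knockout isolations 1 and 2.

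**Figure D4:**
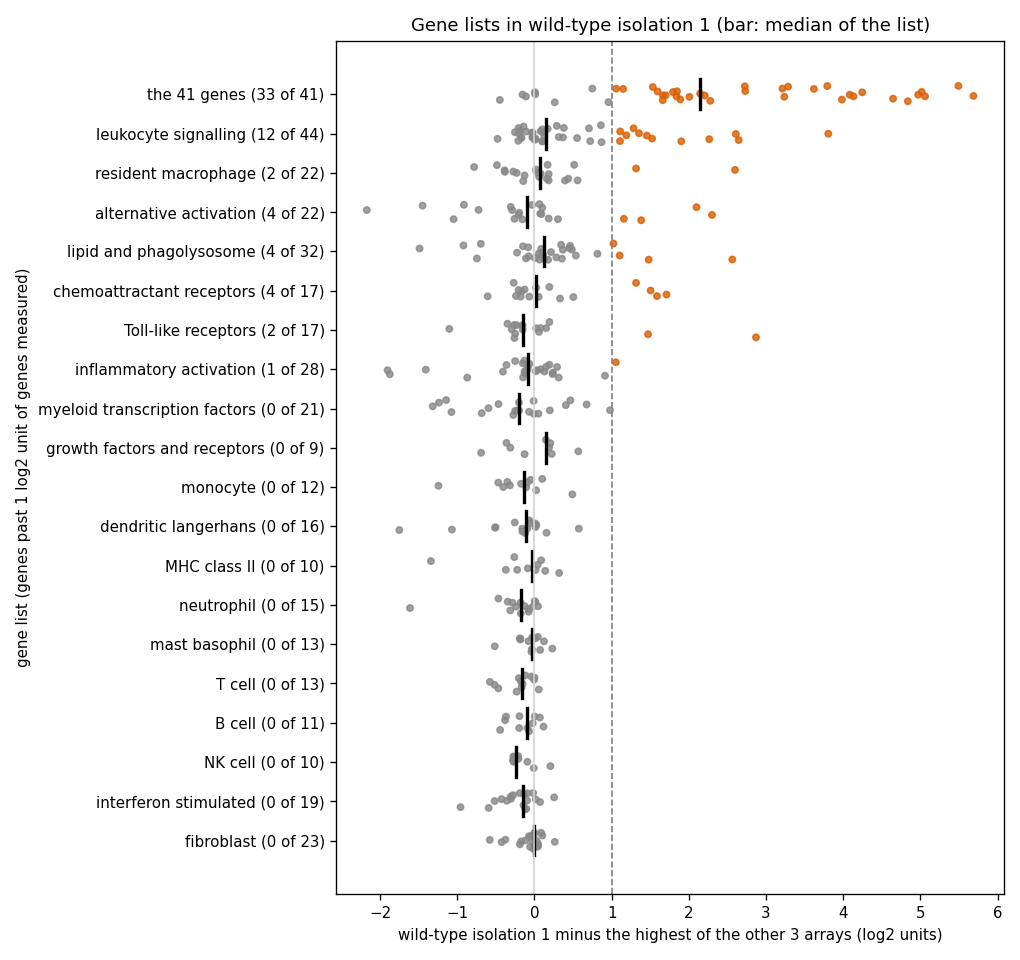
Wild-type isolation 1 minus the highest of the other 3 arrays (log2 units) for each gene of the 41 and of 19 of the 27 lists. Orange points lie above 1 log2 unit (dashed line), and black bars are list medians. The 41 genes have a median of 2.15, and the 19 lists shown have medians between -0.24 and 0.15. The 8 left out (microglia, erythroid, megakaryocyte, osteoclast, NADPH oxidase, complement and Fc partners, keratinocyte and endothelial genes) have medians between -0.38 and 0.014.

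Of all 109 named genes high in wild-type isolation 1, 33 were members, and 29 of the other 76 were in the lists above. The 25 genes outside the set with the largest gaps held 11 from the lists and 14 others. Lyz1, the neighbour and near copy of Lyz2, came first, at 7.87, 7.45 and 8.20 against 12.84. That was an _x_at probe set, which can bind the other lysozyme transcript, and with such probe sets left out its gap was 0.19. Clec4d, a lectin receptor gene beside Clec4n, followed at 3.36, 3.33 and 3.37 against 7.48, a gap of 4.12, on an _s_at probe set. Ms4a6b, of the same family as Ms4a6d, had a gap of 2.89, or 1.71 with its probe sets averaged.

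Adam8, a relative of Adam9 made by leukocytes, was at 5.32 and 5.05 in the knockout arrays and 5.66 in wild-type isolation 2, whereas wild-type isolation 1 had 8.03. Alox5ap, the protein that feeds arachidonic acid to 5-lipoxygenase for leukotriene synthesis, was at 6.94, 6.54 and 6.33, against 8.90. The focal adhesion protein Lpxn (2.34), the DAP12-coupled lectin receptor Clec5a (2.28) and the lysosomal exonuclease Pld4 (1.99) are also genes of myeloid cells. The B-cell linker Blnk (1.90), the kinase Prkcb (1.90; 0.75 with the mean over probe sets), the transcription regulator Lmo2 (1.76) and Igsf6 (1.75) are genes known from blood cells. Sbspon (2.20), Tm6sf1 (2.03) and the granzyme Gzme (2.00, on an _x_at probe set) were in the same range. Some genes past the limit are not leukocyte genes. Igfbp5 (1.12), Sod3 (1.13) and Abi3bp (1.07), which encode secreted and matrix proteins, were picked out after their values were seen.

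In the other direction, 1 gene stood over 1 log2 unit below the lowest of the other 3 arrays in wild-type isolation 1. It was Idi1, an isomerase of sterol synthesis, at 10.85, 9.86 and 9.69 in knockout isolations 1 and 2 and wild-type isolation 2, against 8.59. Msmo1 (by 0.91) and Fdps (by 0.75), of the same pathway, and the fatty acid elongase Elovl6 (by 0.73) were among the 10 genes with the largest such gaps. Steap1, Slco2a1, Snhg4, Ccl17, Ddx39a and Tubb4b made up the rest, with gaps of 0.70 to 0.91.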

How the data were processed

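Total RNA of 4 cultures, biotin-labelled with a 3' IVT kit, was measured on 1 array each. For every probe set on each array the deposited table holds 1 value, taken here as log2 because values ran from 1.699 to 14.4. Per the submitters' processing notes these came from Affymetrix Expression Console, with its version, its summary method and the base of the logarithm not given in the sources used here. Precision is limited by the number of arrays. Of 45101 probe sets, 64 were controls, 34945 others named 1 gene, 932 several and 9160 none, and only those naming 1 gene were used. For 34741 of them the symbol was taken by Entrez identifier through RefSeq (GRCm38.p6). Where a gene had several probe sets, the brightest by mean stood for it. Knockout was set against wild type in limma 3.58.1 (R 4.3.3, lmFit and eBayes, without a block), with Benjamini-Hochberg adjustment over the 13271 genes whose mean exceeded the 40th percentile. The script was tested on simulated data. The members and lists were chosen with earlier results of these data known. Genes named by rule were the markers and, per role, the members with the largest and smallest differences. Each list gave up to 4 high genes and the brightest other. The 25 highest and 10 lowest genes outside the set were also named. Further genes of the lists and some outside them were named after their values were seen. Alternatives changed the normalization, probe set rule, filter, reference array and block.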

Additional observations from a re-analysis of the deposited data

How the results depend on the processing

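The count of 33 high members ranged from 31 to 35 under other normalizations, probe set rules and a 1.5-fold limit. The 31 were of 40 members, without _x_at and _s_at probe sets, as Aif1 has only an _s_at one. The count was 22 over 2 log2 units, 25 of the 31 members above the filter and 37 on any probe set. The filter used the mean over all 4 arrays, so some members passed it only through wild-type isolation 1. The 25 of 31 is thus no separate check. Of the 13271 genes above the filter, 0.512% passed the limit. Of all named genes, 1.14% passed the 1.5-fold limit and 0.22% that of 2 log2 units. Leaving out 1 of the other arrays gave 33 to 34. The members' median of 2.15 was 1.85 with the mean over probe sets, 1.89 with the probe set brightest in the other 3 arrays and 2.34 against their mean, and 2.15 to 2.26 without 1 of those arrays. Against that mean, 207 of all named genes were high instead of 109, and without wild-type isolation 2, 206. Ptprc turned to -0.20 with the probe set brightest in the other arrays, and Trem2 to -0.017 without _x_at and _s_at probe sets. With the mean over probe sets 8 named genes fell under the limit and 3 rose past it. In the genotype fit 0 members were called under every alternative run. The members' median of -1.46 ranged from -2.82 to -0.21 with 1 array left out. With the isolation number as a replicate block the members' median was -1.46, their lowest limma adjusted p was 0.372 and 2 genes in all were called instead of 9. With any 1 array left out 0 genes in all were called, with 714 to 2281 at an unadjusted limma p under 0.05. The numbers pair only 2 arrays per genotype, and deviations of same-numbered arrays correlated at 0.116 across genes.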
